A study of Drosophila melanogaster with 4 samples.

Results

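The genes examined here encode 9 cell-surface proteins that motor axons use to bundle, to choose a muscle and to form synapses: Fas2, Fas3, Nrg, Dscam1, Nrt, caps, Con, Ten-m and Ten-a. They were taken by symbol from 13945 annotated protein-coding genes, and every peak summit in a gene body or within 5000 bp of it was assigned to that gene. The series mapped binding of exex, the fly homologue of the motor neuron homeodomain factor HB9, in whole Drosophila melanogaster embryos of 6 to 24 h. The embryos came from a transgenic line with stable expression of exex whose C-terminus carries GFP. Sonicated chromatin with fragments of 200 to 800 bp was precipitated with an antibody against GFP. All 4 libraries are biological replicates of this 1 group, so there is no second condition to compare and the values below are descriptive, with no p-values. Whole embryos mix all cell types, so a summit does not say in which cells the tagged protein was bound. Each replicate list holds 30000 peaks, read depth is unknown, and 23.2% of the peaks of replicate 4 had a q-value under 0.01, against 39.6% to 46.2% in the other replicates. The authors' list filtered by irreproducible discovery rate (IDR) holds 7909 peaks, and rank 1 is the peak of highest signal.

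Growing motor axons follow one another and recognise muscles through adhesion proteins, most of which bind a copy of themselves or a partner on the facing cell. Fas2, the fly homologue of NCAM, and Fas3 are homophilic immunoglobulin-type proteins; Fas2 holds motor axons in bundles, and Fas3 marks some motor neurons and their muscles. Nrg, the homologue of L1CAM, and Dscam1, which is alternatively spliced into a very large set of isoforms, belong to the same superfamily. caps and Con carry leucine-rich repeats and act in the choice of muscle targets. Nrt has a cholinesterase-like extracellular domain and binds the secreted protein Ama, and the teneurins Ten-m and Ten-a are large transmembrane proteins that help to match motor neurons with muscles. Homeodomains of the exex type recognise sites with the core TAATTA.

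Some of the 16 IDR summits of these genes are shown first, while the later comparisons of short sequences use all 16. Each line gives the plus strand of the dm6 reference (RefSeq Release 6), with 100 bases on each side of an IDR summit. The highest summit of each gene was taken where the window held no untranslated sequence, and the lower-ranked windows of Fas3 and caps were added after their values were seen, because they hold CTTATC beside a higher summit that lacks it; the window of Dscam1 is not shown. Capitals mark the homeodomain core TAATTA, its variant TAATTG, and a second word found at 35.4% of IDR summits and in 12.2% of flanking windows, CTTATC, on either strand. A word in capitals that reads otherwise is one of these on the minus strand.
Fas2, chrX:4202492-4202692, IDR rank 6281: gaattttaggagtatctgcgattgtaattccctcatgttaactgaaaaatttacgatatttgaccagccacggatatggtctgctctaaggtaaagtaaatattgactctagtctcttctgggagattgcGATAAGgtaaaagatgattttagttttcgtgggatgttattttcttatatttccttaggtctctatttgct
Fas3, chr2L:18325241-18325441, IDR rank 4259: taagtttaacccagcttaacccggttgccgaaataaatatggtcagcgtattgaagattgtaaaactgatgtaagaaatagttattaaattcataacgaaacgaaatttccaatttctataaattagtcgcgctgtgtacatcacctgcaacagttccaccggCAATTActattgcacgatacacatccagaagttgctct
Fas3, chr2L:18325442-18325642, IDR rank 7306: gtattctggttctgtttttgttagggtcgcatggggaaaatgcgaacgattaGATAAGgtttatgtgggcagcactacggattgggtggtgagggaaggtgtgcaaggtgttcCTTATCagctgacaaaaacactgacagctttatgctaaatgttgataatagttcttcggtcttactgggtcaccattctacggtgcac
Nrg, chrX:8513242-8513442, IDR rank 4496: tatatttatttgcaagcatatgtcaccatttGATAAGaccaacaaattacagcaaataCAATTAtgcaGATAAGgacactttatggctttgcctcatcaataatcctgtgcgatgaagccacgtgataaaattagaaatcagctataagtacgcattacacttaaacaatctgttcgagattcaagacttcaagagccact
Nrt, chr3L:16765737-16765937, IDR rank 7187: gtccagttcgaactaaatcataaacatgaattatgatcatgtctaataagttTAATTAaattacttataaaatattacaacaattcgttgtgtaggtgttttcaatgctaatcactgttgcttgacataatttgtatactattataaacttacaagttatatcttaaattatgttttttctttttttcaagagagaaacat
caps, chr3L:13232890-13233090, IDR rank 2248: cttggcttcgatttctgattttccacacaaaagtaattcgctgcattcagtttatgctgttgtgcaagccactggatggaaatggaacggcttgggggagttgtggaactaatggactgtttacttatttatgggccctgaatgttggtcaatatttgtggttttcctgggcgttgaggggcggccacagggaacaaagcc
caps, chr3L:13233096-13233296, IDR rank 6757: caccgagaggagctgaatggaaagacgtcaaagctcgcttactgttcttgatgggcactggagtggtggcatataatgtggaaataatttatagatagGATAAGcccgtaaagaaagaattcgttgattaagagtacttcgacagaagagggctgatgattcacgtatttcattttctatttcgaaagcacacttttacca
Ten-m, chr3L:22408066-22408266, IDR rank 4659: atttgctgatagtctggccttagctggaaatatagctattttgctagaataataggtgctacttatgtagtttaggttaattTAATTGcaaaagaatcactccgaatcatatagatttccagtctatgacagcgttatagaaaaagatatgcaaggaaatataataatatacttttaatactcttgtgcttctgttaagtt
Ten-a, chrX:12073783-12073983, IDR rank 7462: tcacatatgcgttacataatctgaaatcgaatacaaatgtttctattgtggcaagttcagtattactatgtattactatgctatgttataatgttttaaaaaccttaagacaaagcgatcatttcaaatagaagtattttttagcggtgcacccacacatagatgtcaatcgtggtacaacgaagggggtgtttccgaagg
Of these windows, TAATTA occurs only in that of Nrt, and TAATTG or its complement occurs in those of Fas3 (rank 4259), Nrg and Ten-m. CTTATC or its complement occurs in those of Fas2, Fas3 (rank 7306), Nrg and caps (rank 6757). The highest-ranked window, caps at rank 2248, and that of Ten-a hold none of the 3 words.

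The IDR list placed 16 summits at these loci, and 8 of the 9 genes had at least 1; Con had none. Fas3 and caps had 4 each, Nrg had 3, and Fas2, Nrt, Dscam1, Ten-m and Ten-a had 1 each. Over all protein-coding genes 55.4% had an IDR summit in the body or within 5000 bp, and over the 1742 genes at least as long as the shortest of the 9, Nrt, the share was 68.0%. Of the 9, 6 had a summit inside the gene body, against 18.1% of all genes, and 5 of the 9 (Fas3, Nrt, Nrg, caps and Ten-m) had one within 1000 bp of their own transcription start site (TSS), against 28.2%. All 9 had a pooled summit with q under 0.01, against 63.2% of all genes. The shares for gene bodies, TSSs and pooled summits are over genes of all lengths, and most genes are shorter than these 9. No share matched for length was counted for them, so they do not show an excess at these genes. In the 7909 highest-signal peaks of replicates 1 to 4, the number of the genes with a summit was 5, 8, 8 and 5 of 9, against 55.0%, 53.2%, 55.3% and 60.3% of all genes. The number therefore differed between single replicates. With replicate 1, 2, 3 or 4 left out, a match was required in the highest peaks of the remaining 3. This kept 5, 4, 4 and 5 of the genes and 7, 6, 6 and 10 of the summits. Over all genes 45.2%, 45.4%, 43.9% and 46.1% still had a summit. Of the 16 summits 43.8%, 37.5%, 37.5% and 62.5% were kept, against 69.6%, 68.5%, 67.5% and 75.6% of all IDR peaks and 58.1%, 56.6%, 55.3% and 66.4% of those no stronger than the best of the 16. That last set starts at rank 2248, while the median rank of the 16 was 6257, so it is not matched to them for rank. A match in the highest peaks of all 4 replicates kept 4 genes and 6 summits, so the required match by itself lowers these numbers. Of the IDR peaks ranked 1 to 3954, only 1 lay at these genes, at caps, and none at a promoter of theirs.

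Per base, these long loci held fewer of the stronger peaks than the rest of the chromosome arms did. Their numbers of IDR summits lay on both sides of the median for genes of at least their length. Among genes at least as long as each of the 9, itself included, 46.9% (Fas2) to 85.7% (Ten-a) had as few or fewer IDR summits, ties included. The shares were 68.6% for Fas3, 67.7% for caps, 62.7% for Nrg, 51.7% for Con, 50.8% for Ten-m, 49.3% for Dscam1 and, as 837 of 1742 genes, 48% for Nrt. The median number in those genes was 2.00, except 1.00 for Ten-m and 0 for Con and Ten-a. Fas2, Nrt and Dscam1 lay below it, Con and Ten-m at it, and Fas3, caps, Nrg and Ten-a above it. The 1742 genes at least as long as Nrt held 5037 IDR summits in 81069441 bp, counting a summit once for each gene it was assigned to. The 9 genes held 16 in 949279 bp, and so fewer per base than those long genes too. The 9 genes with their flanks cover 949 kb, which is 0.709% of the 134 Mb of chromosome arms, and held 0.202% of IDR summits. This is 0.169 IDR summits per 10 kb at the 9 genes and 0.594 per 10 kb in the rest of the arms, a ratio of 0.284. For pooled summits with q under 0.01 the densities were 0.305 and 0.933 per 10 kb, a ratio of 0.327. In the complete pooled list, by contrast, the 192 summits at the 9 genes gave 2.02 per 10 kb against 2.24 in the rest, a ratio of 0.902. The replicates showed both patterns: among their highest peaks the ratios were 0.213, 0.266, 0.284 and 0.177 in replicates 1 to 4, and in their complete lists 0.822, 0.883, 0.831 and 0.732. The mean density at the 9 genes was 0.140 ± 0.0294 per 10 kb for the highest peaks, against 0.594 in the rest, and 1.83 ± 0.141 for the complete lists, against 2.24 (SD, n = 4). Per gene, the median was 0.135 IDR summits per 10 kb for the 9 genes and 0.657 for all genes, while the median number of summits was 1.00 for both; most genes are shorter than these 9, and a density over the fixed flanks depends on length.

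**Figure D1:**
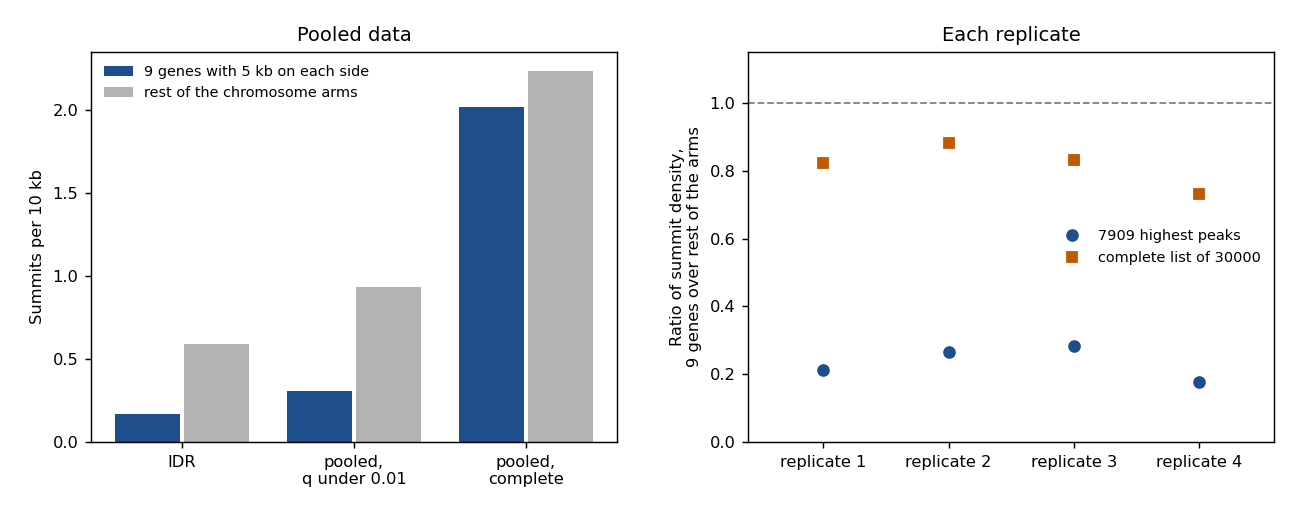
Left, peak summits per 10 kb at the 9 genes with 5 kb on each side (blue) and in the rest of the chromosome arms (grey) for 3 lists from the pooled data. Right, ratio of the 2 densities in each replicate for its 7909 highest peaks (circles) and its complete list (squares), with a dashed line at equal density; the circles lie between 0.177 and 0.284 and the squares between 0.732 and 0.883.

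The map of the loci shows that most of these summits sat near the start of their gene. Within 1 kb upstream to 10 kb downstream of the outermost TSS lay 13 of the 16 IDR summits (81.2%), in 10.4% of the length of the extended genes. In the complete pooled list the same stretches held 46 of 192 summits (24.0%). For the genes at least as long as Nrt, the first 10 kb held 2193 of 5037 IDR summits (43.5%) in 23.6% of their length, counting a summit once for each gene it was assigned to. This stretch was chosen after the positions were seen, so the 13 of 16 is a description. The exceptions were 2 summits of Nrg and the single summit of Ten-a. Summit-free stretches were long: the largest that touched a gene body was 396 kb at Ten-a, 309 kb at Con, 220 kb at Fas3 and 178 kb at caps, against a median of 3.02 kb between neighbouring IDR summits. Of all 7903 such gaps, 6 were at least as long as that of Ten-a and 16 at least as long as that of Con, each counted in. Each of the named stretches ran past its gene, whose body spans 292 kb at Ten-a, 142 kb at Con, 73.3 kb at Fas3 and 51.0 kb at caps. The largest gap that touches a long gene is also not a like measure to the median of all gaps.

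**Figure D2:**
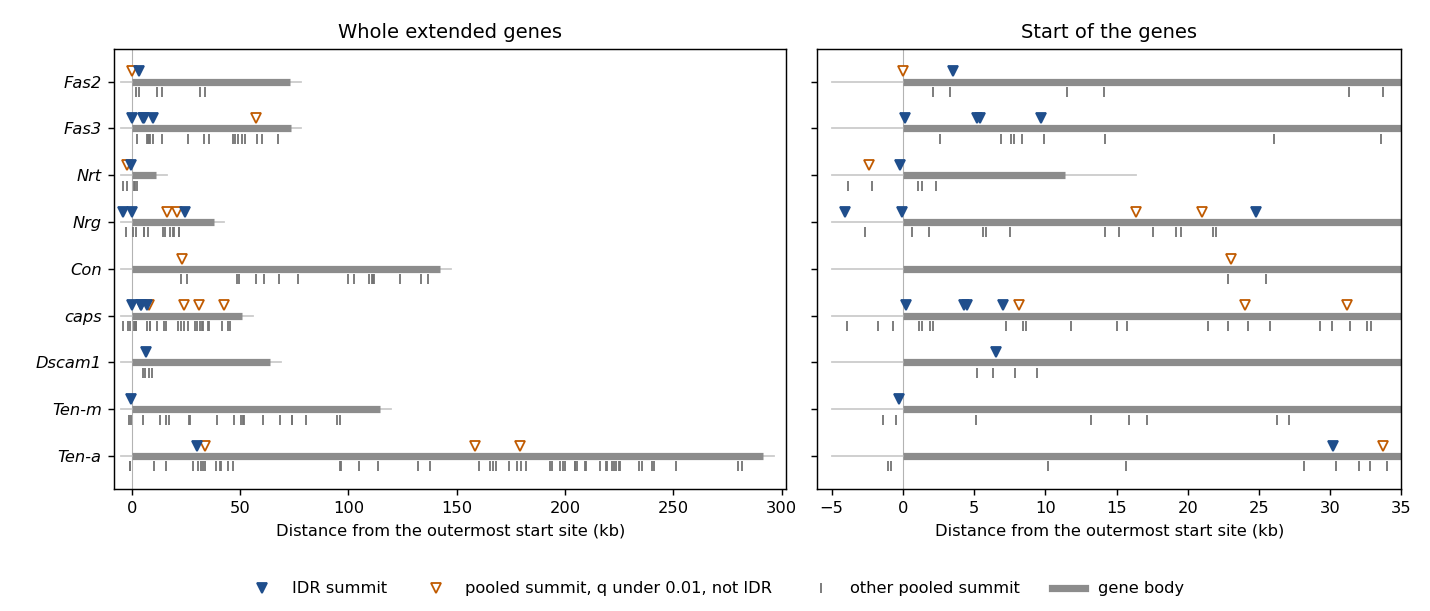
Positions of pooled peak summits at the 9 genes in kb from the outermost start site, over the extended genes (left) and from 5 kb upstream to 35 kb downstream (right), with genes on the minus strand turned so that all run left to right. Filled triangles are IDR summits, open triangles other summits with q under 0.01 and ticks the remaining ones; 13 of 16 filled triangles lie from 1 kb upstream to 10 kb downstream of the start.

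Among the immunoglobulin-type genes, Fas3 carried the most IDR summits. Fas3 (FBgn0000636, chromosome 2L, 18320102 to 18393441, plus strand, dm6) had a summit at its promoter, 116 bp past the TSS, and 3 in its first intron. The strongest, 5239 bp past the TSS at 18325341, had an authors' signal of 425 and rank 4259, and its peak ranked 5166, 4349, 5908 and 2404 in replicates 1 to 4. It was thus among the highest peaks of every replicate. A neighbouring summit at 18325542, with rank 7306, shares those replicate peaks and so is no separate measurement in the replicates. The last intronic summit, at 18329830, ranked 5288, 7517, 7209 and 12075 in replicates 1 to 4. The promoter summit at 18320218 ranked 5436, 11064, 7597 and 12399, and so was among the highest peaks of replicates 1 and 3 only. The rest of the locus had no IDR summit, and the nearest one outside lay 134918 bp from the gene, at the promoter of Ptp36E. Among the highest peaks, Fas3 had 4, 2, 3 and 2 summits in replicates 1 to 4 (2.75 ± 0.957, SD, n = 4).

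Nrg (FBgn0264975, chromosome X, 8517373 to 8555170, plus strand) had 3 summits among the highest peaks of each of the 4 replicates, although not the same 3 in each. Its promoter summit at 8517290, 83 bp upstream of a TSS, had rank 5785 in the IDR list and ranks 5272, 4844, 5802 and 8762 in replicates 1 to 4. The strongest summit assigned to Nrg, at 8513342 with rank 4496, lay 4031 bp upstream, inside an intron of the neighbour CG33181, whose TSS is nearer at 3665 bp. It ranked 4459, 3993, 5017 and 6211 and so was high in all 4 replicates, but distance alone does not assign it to Nrg. The third summit, at 8542161 in intron 3, ranked 8111, 4249, 6467 and 23152 in replicates 1 to 4, low in replicate 4, and its nearest TSS, at 12463 bp, is that of PIP82. A further summit at the promoter of Trf4-1 with rank 6684 lay 5178 bp past the gene body, just outside the limit of 5000 bp.

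Fas2 and Dscam1 each had 1 summit, in the second intron, a few kilobases from the TSS. That of Fas2 (FBgn0000635, chromosome X, 4132887 to 4206093, minus strand), at 4202592 and 3501 bp past the TSS, had rank 6281. Its replicate ranks were 5793, 7684, 6014 and 10121, so replicate 4 lacked it among its highest peaks. At the Fas2 promoter a pooled summit 25 bp past the TSS had q under 0.01 but rank 8533 and did not pass the IDR filter; replicate ranks were 7861, 7109, 10764 and 19265. The Dscam1 summit (FBgn0033159, chromosome 2R, 7317924 to 7381899, minus strand), at 7375337 and 6532 bp past its TSS, had rank 4998. Of the 16 summits it was the most even across libraries, with ranks of 5979, 5187, 5616 and 5067 in replicates 1 to 4. Dscam1 had 1 summit among the highest peaks in each replicate and on average the fewest summits in the complete lists, with 7, 5, 4 and 9 in replicates 1 to 4 (6.25 ± 2.22, SD, n = 4).

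Of the leucine-rich repeat genes, caps held the strongest peak of the set and Con held none in the IDR list. The first intron of caps (FBgn0023095, chromosome 3L, 13228692 to 13279642, plus strand) had its highest summit at 13232990, 4298 bp past the TSS, with a signal of 699 and rank 2248. Replicate ranks of 3349, 2357, 1351 and 3786 put it among the highest peaks of all 4 libraries. A summit 206 bp away at 13233196, with rank 6757, shares those replicate peaks. The next intronic summit, at 13235700 with rank 4077, ranked 2970, 3686 and 5516 in replicates 1 to 3 but 20408 in replicate 4. The promoter summit at 13228909, 217 bp past the TSS, had rank 7708, ranked 8637, 6173 and 6239 in replicates 1 to 3 and was not listed in replicate 4. Replicate 4 therefore listed the shared intronic peak but ranked the other intronic peak low. In the complete lists caps had 28, 29, 30 and 20 summits in replicates 1 to 4 (26.8 ± 4.57, SD, n = 4), and 4 further pooled summits had q under 0.01.

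Con (FBgn0005775, chromosome 3L, 4936758 to 5079033, minus strand) had no summit in the highest peaks of any replicate. It was not empty: the complete lists held 21, 22, 21 and 14 summits in replicates 1 to 4, and the pooled list 18. The strongest, at 5055977 in the second intron, 23056 bp past the outer TSS, had q under 0.01 and pooled rank 11205. It ranked 10748, 10139, 11633 and 19333 in replicates 1 to 4, below the highest 7909 in each. At the inner TSS of Con a pooled summit 74 bp upstream had rank 16696 and did not reach that q. Of the 29 genes at least as long as Con, itself included, 15 (51.7%) had no IDR summit. A long gene without one was thus no exception, and the nearest outside lay 55159 bp away at the promoter of Yod1.

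Nrt (FBgn0004108, chromosome 3L, 16766072 to 16777465, plus strand), the shortest locus, had 1 IDR summit at its promoter. This summit, at 16765837, lay 235 bp upstream of the TSS and had rank 7187. Replicate ranks were 11110, 7231, 7404 and 10209, so the peak was among the highest of replicates 2 and 3 only. Its window is the most AT-rich of the 16, with a GC content of 23.9%, against a median of 36.6% for the 16 summits and 38.8% for all IDR summits.

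The teneurin genes, with Con the 3 longest of the set, had 1 IDR summit each. Ten-m (FBgn0004449, chromosome 3L, 22293044 to 22407863, minus strand) had it at the promoter, at 22408166 and 303 bp upstream of the TSS, with a signal of 393 and rank 4659. The peak ranked 4743, 4455 and 2878 in replicates 2 to 4 but 13954 in replicate 1, so it was high in 3 libraries. Ten-a (FBgn0267001, chromosome X, 12043698 to 12335214, plus strand) had it in the first intron, at 12073883 and 30185 bp past its outermost TSS, with rank 7462. There the nearest TSS, at 1065 bp, is that of moon, so by nearest TSS it would be assigned to moon. Its peak ranked 12551, 5077, 7518 and 8215 in replicates 1 to 4, and was among the highest of replicates 2 and 3 only. Ten-a had the lowest density of the 8 genes with an IDR summit, 0.0332 per 10 kb, and Ten-m the next, 0.0801. Of the 7 genes at least as long as Ten-a, itself included, 5 had no IDR summit. In the complete lists Ten-a had 50, 52, 50 and 25 summits in replicates 1 to 4 (44.2 ± 12.9, SD, n = 4), and Ten-m had 20, 24, 17 and 22 (20.8 ± 2.99, SD, n = 4).

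The peaks at these genes were of modest rank, and the replicates differed in how many they ranked high. The median rank of the 16 summits was 6257 of 7909, and of 4 equal bins of the list by signal, highest first, they had 0, 1, 6 and 9 summits. Replicates 1 to 4 recovered 68.8%, 93.8%, 100% and 43.8% of the 16 peaks among their highest peaks (76.6 ± 25.7%, SD, n = 4). For all IDR peaks the shares were 88.8%, 88.1%, 90.1% and 80.1% (86.8 ± 4.51%). Support fell along the IDR list in general, with means of 99.7%, 96.8%, 86.5% and 64.2% in the same 4 bins, highest first, and IDR peaks no stronger than the best of these genes had 81.7 ± 6.23%. In all 4 replicates 6 of the 16 peaks (37.5%) were among the highest, against 65.3% of all IDR peaks and 52.2% of those no stronger. The 6 belonged to Fas3, caps, Nrg and Dscam1, with Fas3 and caps giving a pair each. For all IDR peaks in the same 4 bins, highest first, the share high in all 4 replicates was 98.9%, 88.1%, 53.9% and 20.1%. The set of peaks no stronger starts at rank 2248, while most of the 16 lay in the lowest bins. It is therefore not matched to them for rank. Bins 3 and 4 held 6 and 9 of the 16. The 37.5% lies between the 53.9% and 20.1% of these bins, and the 76.6% between their 86.5% and 64.2%. The contrasts with all IDR peaks thus do not show lower support than at peaks of like rank. In the complete lists 15 of the 16 (93.8%) were found in all 4 replicates, close to the 93.1% of all IDR peaks and 90.8% of those no stronger. Because the authors derived the IDR list from these libraries, this recovery is no independent measure.

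**Figure D3:**
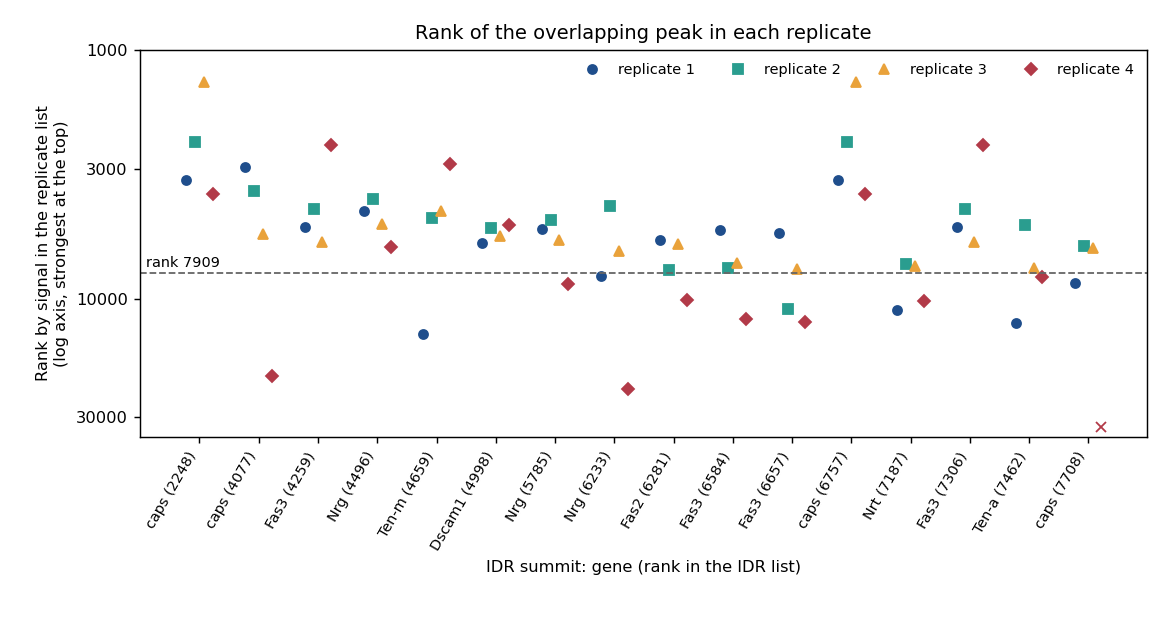
Rank by signal of the replicate peak overlapping each of the 16 IDR summits (log axis, strongest at the top), with summits in order of their IDR rank, given in brackets. Each marker is 1 replicate, the dashed line is rank 7909 and the cross marks the caps peak that replicate 4 did not list; 9 of the 16 peaks in replicate 4 lie below the line or are not listed.

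Introns, mostly first introns of the genes themselves, held most of the 16 summits. Introns away from promoters held 11 of 16 (68.8%, Wilson 95% interval 44.4 to 85.8), against 33.3% (32.3 to 34.4) of all IDR summits. Within 1000 bp of any TSS lay 5 of 16 (31.2%, 14.2 to 55.6), against 54.9% (53.8 to 56.0). The promoter interval of the 16 summits reaches the share of all summits, and the intron interval does not. Exons and intergenic sequence held 0 of 16, which allows up to 19.4%, against 2.54% and 9.22%. Of the 11 intronic summits 10 lay in introns of the assigned gene, 7 in the first, 2 in the second and 1 in the third intron. Among IDR summits no stronger than the best of these genes the shares were 55.3% at promoters and 32.8% in introns, close to those of the whole list. Without replicate 1, 2, 3 or 4 the promoter share at the 9 genes was 14.3%, 0%, 0% and 10%. Summits were taken by gene body and these long bodies hold long introns, so the assignment rule itself bears on these shares. Intervals here and below cover counting error only, and paired summits are not independent.

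TAATTA was not frequent at these summits, while CTTATC was about as frequent as in the whole list. The reverse complement of this word is of the kind that GATA factors bind. TAATTA lay within 100 bp of 2 of 16 summits, those of Nrt and Dscam1 (12.5%, Wilson 95% interval 3.5 to 36.0), against 19.7% of all IDR summits (18.8 to 20.6). In windows centred 1000 bp to either side it was found in 7 of 32 (21.9%), against 12.2% for all IDR summits. With TAATTG counted as well, 5 of 16 summits (31.2%) had a match, against 40.9%. CTTATC lay within 100 bp of 6 of 16 summits (37.5%, 18.5 to 61.4), against 35.4% (34.4 to 36.5), and in 1 of 32 flanking windows (3.12%, 0.554 to 15.7), against 12.2%. With 16 summits the intervals span the shares of the whole list for both words. Without replicate 1, 2, 3 or 4, the share with CTTATC among the 7, 6, 6 and 10 summits kept was 57.1%, 66.7%, 66.7% and 60%. The share among all IDR peaks kept in this way is not given here. Over the whole list it rose with signal, from 25.2% in the lowest of the 4 bins to 47.3% in the highest. Of the summits kept, Fas3 at rank 7306 and caps at rank 6757 share the replicate peaks of a stronger neighbour that lacks the word.

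Most copies of either word at these genes were far from a summit. The 9 extended genes hold 795 copies of TAATTA, 8.37 per 10 kb against 7.29 per 10 kb over all arms, and 2 of the 795 lie within 100 bp of an IDR summit. They hold 363 copies of CTTATC, 3.82 per 10 kb against 4.60, of which 11 lie that near, 4 of them at Nrg and 3 at Dscam1. Ten-a has 247 copies of TAATTA and Con 126, with none of either gene near an IDR summit. At caps, the copy of CTTATC shown in capitals starts 2 bp from the summit at rank 6757, the closest of those printed. A match is a description of the sequence and does not show that a factor binds there.

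**Figure D4:**
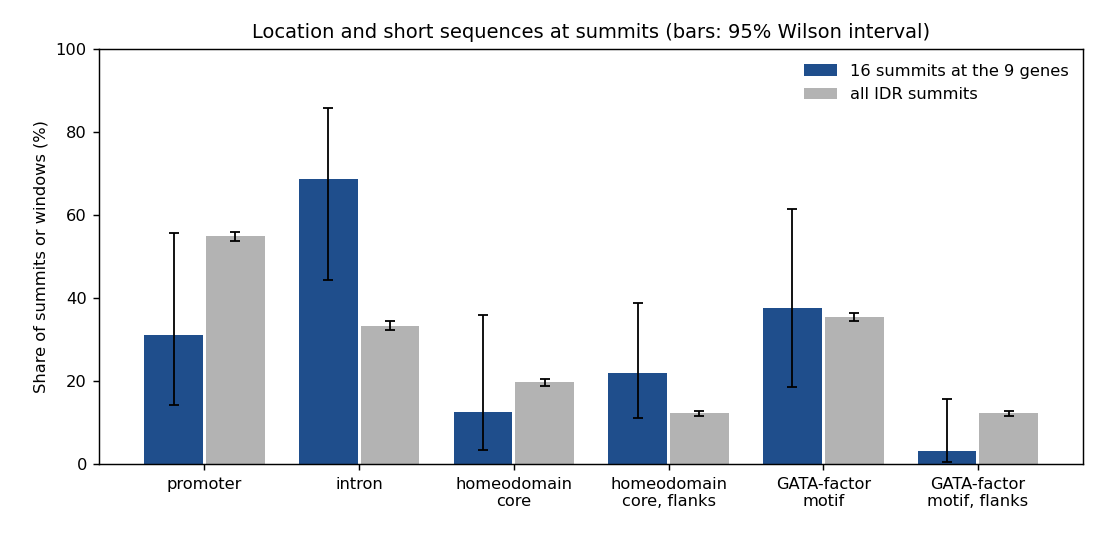
Share of the 16 IDR summits at the 9 genes (blue) and of all IDR summits (grey) at promoters, in introns, and with the homeodomain core TAATTA or the GATA-factor motif searched above within 100 bp, with the same for flanking windows centred 1000 bp away. Error bars are 95% Wilson intervals; the intron share is 68.8% against 33.3%, and CTTATC at summits is 37.5% against 35.4%.

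Below the IDR filter, 13 further pooled summits at these genes had q under 0.01, and 12 of them were listed in all 4 complete replicate lists. The same share over all pooled summits of this kind is not given here, and the pooled list comes from the same libraries. The 12 of 13 is thus no trait of these genes. They were 4 at caps, 3 at Ten-a, 2 at Nrg and 1 each at Fas2, Fas3, Nrt and Con. At Ten-a the best, at 12223043, had rank 8293 and lay 6880 bp upstream of an inner Ten-a TSS, and another at 12202369 lay 1429 bp upstream of an inner TSS. Both lie well past the single IDR summit of that gene. Dscam1 and Ten-m had no further summit of this kind.

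Other adhesion genes and the binding partners of these proteins were counted by the same rule. Of 28 related adhesion genes 15 had an IDR summit, 9 of them in the gene body, and of 9 partner genes 7 had one, 5 in the body. Over all genes the share was 55.4% with 5000 bp on each side and 18.1% for the gene body, in genes of all lengths. Those without included trn, the closest relative of caps, and all of Dscam2, Dscam3 and Dscam4. The strongest summits assigned to relatives were at kirre (rank 421), a myoblast receptor, Nlg2 (rank 586), a neuroligin, and the integrin subunit genes if (rank 658) and mew (rank 1177). Those of kirre and mew lay in the gene body, but their nearest TSSs were those of CG32795, at 1262 bp, and CG32639, at 1661 bp. That of Nlg2 lay at the promoter of Nha1, and that of if was nearest to goe, at 1606 bp. Each of these 4 summits was stronger than the best of the 9 genes, caps at rank 2248.

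Of the 7 partner genes with a summit, 6 had one at their own promoter or in their own body, and the exception was Cirl. By the same rule 11 of the 15 related genes with a summit had one there. The share over all genes with a summit was not counted, so neither count shows an excess. Ama, the ligand of Nrt, had a summit 344 bp from its own TSS with rank 7217, and dlg1, a scaffold that holds Fas2 at synapses, had one 545 bp from its TSS with rank 6243. The adaptor gene dock, which acts with Dscam1, had one 61 bp from its TSS with rank 2681, and cher, a filamin, had one in its own intron with rank 4154. Cont, a septate junction partner of Nrg, also had a summit in its body, and the neuronal ankyrin gene Ank2 one at its own promoter. The highest summits assigned to Cont and Ank2, with ranks of 596 and 717, were others that lay outside these genes, at the promoter of Sfxn1-3 and nearest to Mcad. The summit assigned to Cirl, a latrophilin of the kind that binds teneurins in vertebrates, had rank 4040 and also lay outside the gene. Pak and Nrx-IV had none.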

How the data were processed

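Chromatin bound by GFP-tagged exex was sequenced in 4 biological replicates of 1 group (source name in the labels). The deposited peak lists are narrowPeak files in dm6 coordinates. The submitters' file lists say that alignments and 1 further input gave the replicate and pooled lists, and that these gave the IDR list. Neither the aligner and peak caller nor the threshold of the IDR filter is named there. Each deposited peak has a signal value from the authors, which is a score and served to rank peaks within 1 list. The deposited q-values are on a −log10 scale and were used only for the threshold of 0.01. The deposited lists also give the summit offset.

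The annotation was Ensembl release 115 (BDGP 6.54; 13945 protein-coding genes at 19252 distinct TSS positions), and sequence from the RefSeq copy of Drosophila Release 6. All 9 symbols matched. Summits were located as promoter (within 1000 bp of a TSS), exon, intron or intergenic. Of each replicate the 7909 peaks of highest signal were used, as many as the IDR list holds, and an overlap of at least 1 bp counted as support. TAATTA and CTTATC were searched on both strands within 100 bp of a summit. Shares have 95% Wilson intervals. To leave out a replicate, the IDR list was limited to peaks matched by the highest peaks in all of the remaining 3; the IDR filter itself was not repeated. Other settings were a 500 bp promoter, a 50 bp motif window, stricter overlaps and other gene assignments.

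The genes named are the 9, the gene with the TSS nearest to each of their summits, and the 4 relatives and 4 partners of highest summit. For some relatives and partners the gene with the TSS nearest to their highest summit is named too. Ama, dlg1, cher, trn, the Dscam relatives, Pak, Nrx-IV and the neighbours outside the limit were chosen after their values were seen. The genes and lists were chosen with earlier results of these data known. Counting was tested on simulated data with known answers. Versions were Python 3.11.15, pandas 2.3.3, numpy 2.4.6, matplotlib 3.10.9 and scipy 1.17.1.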

Additional observations from a re-analysis of the deposited data

Results flagged for a closer look

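Values of the 4 replicates were compared for 37 measures, and in 6 of them 1 library stood apart by Dixon's criterion. Chance alone meets it in about 1 of 20 groups of 4 normally distributed values. Counts and shares with ties, as in some of these measures, need not follow that rate. In 5 of the 6 flagged measures the library apart was replicate 4, which also had the fewest peaks with q under 0.01, at 23.2%. The part of this in the values was not tested. The complete list of replicate 4 held 21.0 summits at Nrg, against 14.0, 15.0 and 15.0 in replicates 1 to 3. At Con it held 14.0, against 21.0, 22.0 and 21.0. At Ten-a it held 25.0, against 50, 52 and 50. It listed 93.8% of the 16 IDR peaks, against 100% in each other replicate, a difference of the 1 peak at the caps promoter. The caps peak of IDR rank 4077 ranked 20408 in replicate 4, against 2970, 3686 and 5516. The sixth concerns replicate 1, where the Ten-m promoter peak ranked 13954, against 4743, 4455 and 2878 in replicates 2 to 4.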

How the results depend on the processing

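Of 54 values under other settings, 30 stayed within the spread or within 1.5 times of the reported value and 24 moved. With the IDR list limited to its better-ranked part (ranks to 3954), 1 of the 9 genes had a summit (8 in the whole list). In that part 1 summit was left of 16, and 0 genes had a promoter summit, against 5. A shorter list lowers such counts for genes in general, and the share over all genes in that part is not given here. Without 1 replicate the genes with a summit numbered 4 to 5, the summits 6 to 10 and the genes with a promoter summit 0 to 1. Over all genes the share with a summit in these lists was 43.9% to 46.1%, and that with a promoter summit is not given here. In the same lists the promoter share ranged from 0% to 14.3%, CTTATC from 57.1% to 66.7%, TAATTA from 10% to 16.7% and the median rank from 4659 to 5392. Replicate support of all 16 peaks, averaged over the remaining 3 replicates, ranged from 68.8% to 87.5%. Leaving out a replicate here also shortens the IDR list to between 5339 and 5982 peaks, since a peak must then be among the highest of each of the other 3. With the gene body only, 14 of the relatives and partners had a summit, against 22 with 5000 bp on each side. With the nearest TSS as the rule 7 of the 9 genes had a summit, with the gene body only 6, and in the complete pooled list 9. Of all genes 18.1% had a summit in the gene body, and the shares for the other 2 rules are not given here. No paired analysis was possible because the series has 1 group and no test was run. The number of summits, 16, limits every share, and the peak lists give no read depth.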
